A study of Mus musculus with 11 samples.

Results

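The 9 genes described here encode claudins and their partners at tight junctions: Cldn1, Cldn2, Cldn3, Cldn4, Cldn6, Cldn7, Cldn12, Ocln and Tjp1. They were chosen by name, as the rows of the count tables that carry these symbols, and make up 9 of 23284 genes listed. RNA was sequenced in 11 libraries of 266-6, a mouse pancreatic acinar tumour cell line. Arid1a encodes a subunit of the SWI/SNF chromatin remodelling complex, and EGF is a growth factor that signals through the EGF receptor. Cells were transfected with siRNAs for 48 h and received EGF or its vehicle for the last step of 8 h, after a night without serum. The siArid1a_EGF group (3 libraries) had Arid1a siRNAs at 25 nM and EGF at 40 ng/ml. The siArid1a group (3 libraries) had the same siRNAs and 0.1% BSA, the vehicle. The siCtrl_EGF group (3 libraries) had a non-targeting siRNA, named NT5, and the same dose of EGF. The siCtrl group (2 libraries) had NT5 and vehicle. All groups are 1 cell line with transient, partial knockdown, and the labels do not say whether libraries of a group are separate cultures. The p-values therefore cover the spread among the sequenced libraries alone, part or all of which may be technical.

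Tight junctions close the space between neighbouring epithelial cells near their apical side. Claudins are membrane proteins that bind each other across that space and decide, by which family members are present, whether a junction is a barrier or lets ions and water through. Occludin is a further membrane protein of the junction, and ZO-1, the product of Tjp1, is the cytoplasmic scaffold that ties claudins to actin. In the pancreas, tight junctions keep digestive enzymes in the acinar lumen and the ducts.

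Promoters of 3 members are shown because they had the largest log2 changes with Arid1a siRNAs in the presence of EGF among the 7 tested members, and in unlike directions. Cldn3 and Cldn4 are neighbours on chromosome 5 with no other gene between them in the RefSeq annotation, yet Cldn3 rose and Cldn4 fell in that comparison. The sequences are the RefSeq windows of 250 bases before to 50 bases after the annotated start, on build GRCm38.p6, written from 5′ to 3′ on the strand of the gene. They lie at chr16:26371790-26372089 on the minus strand for Cldn1, chr5:134985964-134986263 on the plus strand for Cldn3 and chr5:134946885-134947184 on the minus strand for Cldn4. Capitals mark the words TGANTCA, the core bound by AP-1 factors, and CAGGTG, an E-box read by Snail factors, on either strand.
Cldn1 promoter: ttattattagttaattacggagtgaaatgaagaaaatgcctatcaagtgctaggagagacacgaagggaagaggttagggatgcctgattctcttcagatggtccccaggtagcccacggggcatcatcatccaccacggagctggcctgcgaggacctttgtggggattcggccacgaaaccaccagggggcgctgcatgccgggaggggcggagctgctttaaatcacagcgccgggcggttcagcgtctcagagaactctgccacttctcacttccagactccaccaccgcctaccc
Cldn3 promoter: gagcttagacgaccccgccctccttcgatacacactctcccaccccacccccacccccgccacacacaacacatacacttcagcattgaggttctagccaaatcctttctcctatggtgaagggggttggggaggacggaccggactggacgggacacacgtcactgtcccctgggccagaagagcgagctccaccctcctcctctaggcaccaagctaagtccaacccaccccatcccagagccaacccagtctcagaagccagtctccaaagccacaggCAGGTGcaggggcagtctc
Cldn4 promoter: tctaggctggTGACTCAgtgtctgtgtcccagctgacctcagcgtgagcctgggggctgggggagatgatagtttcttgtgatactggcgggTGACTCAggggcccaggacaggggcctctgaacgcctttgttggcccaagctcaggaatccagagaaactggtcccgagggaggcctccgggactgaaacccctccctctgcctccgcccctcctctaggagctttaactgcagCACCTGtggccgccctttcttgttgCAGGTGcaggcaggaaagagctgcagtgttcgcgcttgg

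Cldn4 held the AP-1 word at 240 and 158 bases before the start and the E-box word at 14 bases before and 12 bases after it, counting from the first base of each word. Cldn3 held the E-box word once, 32 bases after the start, and the Cldn1 window held neither word. Of 32851 RefSeq windows of that length, 7.81% held TGANTCA at least once, 0.46% held it at least 2 times, and 20.2% held CAGGTG. All 9 genes were found in the table, some with several starts, and Cldn4 was the sole one with TGANTCA. The marked words do not overlap each other. In all 13 words were searched in this way, the other 11 being TGACGTCA for CREB factors, CCGGAAGT and the longer ACCGGAAGT that contains it for ETS factors, AACCNGTT for grainyhead factors, AGATAA for GATA factors, TATAAA for the TATA box, GGGCGGG for Sp1, GGGTGTGGC for Klf factors, ATTGG for NF-Y, a loose form of the CArG word for SRF with any bases in its middle, and a word for HNF1. The shares of all windows with these 11 words were, in the same order, 1.79%, 3.89%, 1.1%, 2.09%, 11.2%, 13.6%, 25.6%, 1.35%, 37.4%, 73.3% and 0.0609%. CAGGTG was in windows of 5 of the 9 genes, which besides Cldn3 and Cldn4 were Cldn6, Cldn7 and Ocln. GGGCGGG was in those of Cldn3, Cldn7, Ocln and Tjp1, ATTGG in those of Cldn12 and Ocln, TGACGTCA in those of Cldn6 and Cldn7, and both ETS words in that of Cldn7. The TATAAA word was in the Cldn2 window, 35 bases before its start, and the CArG word was in windows of 8 genes, all but Cldn3. No window of the 9 genes held AACCNGTT, AGATAA, GGGTGTGGC or the HNF1 word. A match is a string of letters and not a bound site.

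Each library held 10279763 to 19773007 counted reads, and 13343 genes passed the filter on low counts. Levels are given as CPM, read counts scaled to library size with TMM factors, which say nothing of levels between genes. Arid1a itself was at 145, 123 and 152 CPM in siArid1a_EGF and 151, 157 and 127 CPM in siArid1a, against 308, 263 and 300 CPM in siCtrl_EGF and 292 and 400 CPM in siCtrl. All 6 libraries with Arid1a siRNAs lay below all 5 libraries with the control siRNA. Arid1a was 2.08-fold lower with EGF and 2.38-fold lower without it (edgeR adjusted p = 2.85e-05 and 2.36e-05). Of 18 acinar marker genes 16 were tested, and their summed level was 14490 to 19040 CPM over the 11 libraries. Most of that was the chymotrypsinogen gene Ctrb1, at 11900 to 13370 CPM in group means, and the elastase gene Cela1, at 1273 to 2406 CPM. In group means Cpa1 was at 543 to 855 CPM, Rbpjl at 269 to 489 CPM and Ptf1a at 147 to 205 CPM. Some acinar genes were absent or low. There was no read of the amylase gene Amy2a5. Gp2 averaged at most 0.11 CPM and the lipase gene Pnlip at most 4.65 CPM in a group. Of 8 endothelial markers, Cdh5 had no read, while Tek was at 40.9 to 48.6 CPM in group means and gave nearly all of a sum of 38.9 to 55.7 CPM. Of 9 immune markers, Ptprc averaged at most 0.142 CPM in a group, while Cd68 averaged 5.27 to 8.58 CPM. The summed level of 10 fibroblast markers was 770 to 838 CPM in siArid1a_EGF and 756 to 769 CPM in siArid1a, against 562 to 588 CPM in siCtrl_EGF and 588 to 612 CPM in siCtrl. The sum moved with the knockdown groups, as Cldn1, Cldn3 and Cldn12 did, but was nearly all Vim and Pdgfrb. Vim averaged 478 CPM in siArid1a_EGF against 257 CPM in siCtrl_EGF, and Pdgfrb 310 against 306 CPM. The collagen gene Col1a1 averaged 1.45 CPM in siArid1a_EGF against 0.847 CPM in siCtrl_EGF, and Col1a2 3.29 against 5.63 CPM. Lum had no read in any library. Of 9 tested fibroblast markers, 1 was higher and 1 lower in that comparison, where 23.7% of all genes were higher and 23.2% lower. The part of the shift in this sum in the results for Cldn1, Cldn3 and Cldn12 was not tested.

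Cldn1, a barrier claudin best known from skin and liver, fell about 3-fold with the Arid1a siRNAs. It stood at 34.0, 29.5 and 30.0 CPM in siArid1a_EGF and 26.9, 27.2 and 25.9 CPM in siArid1a, against 104, 95.7 and 100.1 CPM in siCtrl_EGF and 83.0 and 86.0 CPM in siCtrl. Every library with Arid1a siRNAs was below every library with the control siRNA. With EGF, Cldn1 was 3.20-fold lower in siArid1a_EGF than in siCtrl_EGF (log2 change -1.68 ± 0.07, SE; edgeR adjusted p = 1.88e-09). Without EGF, it was 3.16-fold lower in siArid1a than in siCtrl (log2 change -1.66 ± 0.07; edgeR adjusted p = 7.39e-09). In bulk RNA, fewer cells that express a gene and less RNA per cell cannot be told apart.

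Cldn12, an unusual claudin that lacks the C-terminal motif by which most claudins bind ZO-1, fell with Cldn1 by a smaller amount. Its levels were 40.5, 37.2 and 41.0 CPM in siArid1a_EGF and 38.0, 44.2 and 34.0 CPM in siArid1a, against 56.1, 53.4 and 52.8 CPM in siCtrl_EGF and 57.6 and 58.5 CPM in siCtrl. Again no library of the knockdown groups reached the lowest control library. The fall was 1.37-fold with EGF (log2 change -0.45 ± 0.08; edgeR adjusted p = 0.000509) and 1.49-fold without EGF (log2 change -0.58 ± 0.09; edgeR adjusted p = 0.000228).

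Cldn3, a sealing claudin of many simple epithelia, rose in the same cells. It was at 47.3, 49.6 and 44.8 CPM in siArid1a_EGF and 44.5, 50.4 and 53.9 CPM in siArid1a, against 26.2, 29.6 and 24.1 CPM in siCtrl_EGF and 27.1 and 28.4 CPM in siCtrl. The lowest knockdown library was well above the highest control library. Cldn3 was 1.77-fold higher with EGF (log2 change 0.82 ± 0.09; edgeR adjusted p = 4.13e-06) and 1.79-fold higher without EGF (log2 change 0.84 ± 0.10; edgeR adjusted p = 1.67e-05). In the GENCODE vM21 annotation an exon of Wbscr25 overlaps Cldn3 on the other strand, and the library kit keeps no strand. Wbscr25 was listed with 0 reads in all 11 libraries.

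As Cldn1 and Cldn3 changed in opposite directions, the reads of Cldn1 divided by those of Cldn3 separated the groups within each library. The ratio was 0.718, 0.596 and 0.67 in siArid1a_EGF and 0.604, 0.54 and 0.481 in siArid1a, against 3.99, 3.24 and 4.15 in siCtrl_EGF and 3.07 and 3.03 in siCtrl. Cldn1 had fewer reads than Cldn3 in all 6 knockdown libraries and more in all 5 controls. This ratio is of reads, not adjusted for transcript length. Over the 11 libraries, which share group structure, Pearson's r of log2 CPM was -0.977 between Cldn1 and Cldn3 and 0.928 between Cldn1 and Cldn12.

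**Figure D1:**
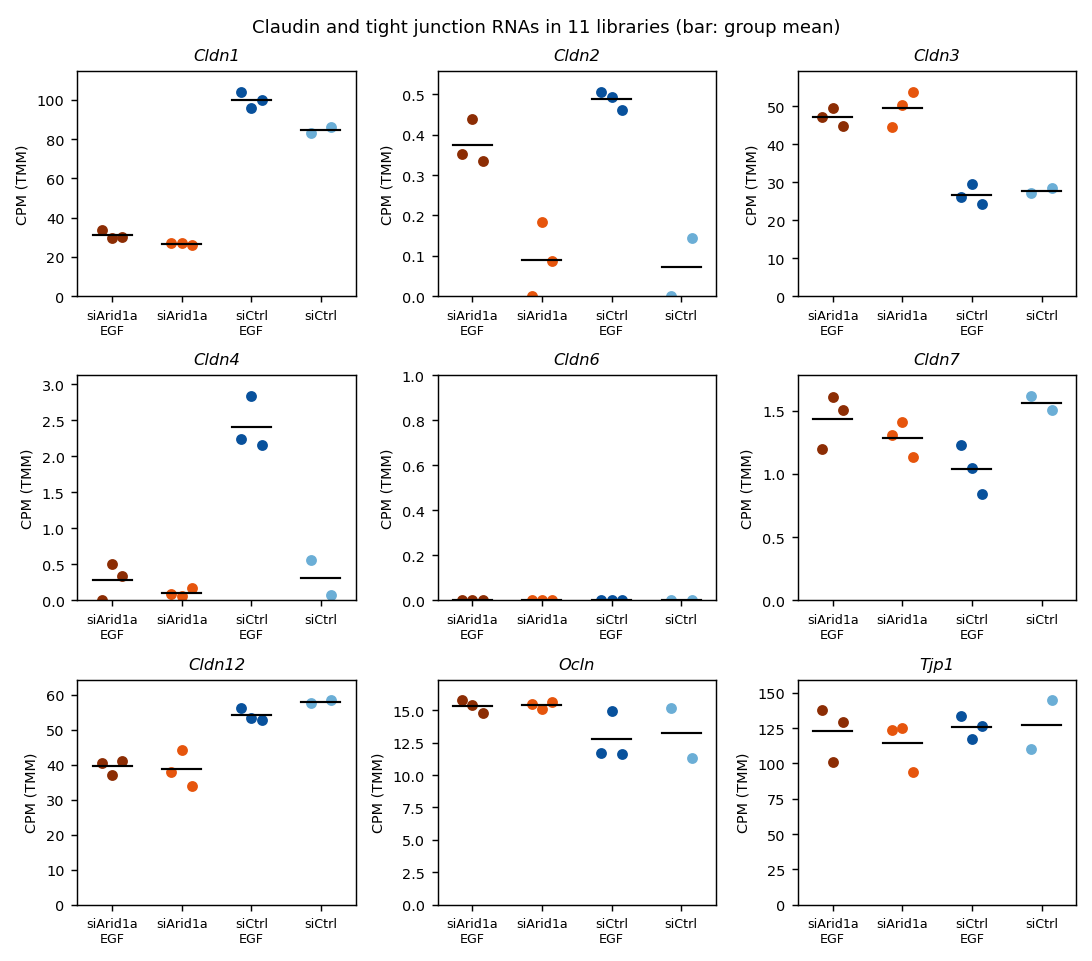
Levels of the 9 genes in CPM scaled by TMM factors (y axis, linear, starting at 0) in the 11 libraries by group; points are libraries and bars are group means. Cldn1 and Cldn12 are low and Cldn3 is high in both groups with Arid1a siRNAs, Cldn4 is high in siCtrl_EGF, Cldn2 is high in both EGF groups, and Cldn6 has no reads.

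Cldn4, a claudin that tightens epithelia and is abundant in pancreatic duct cells, was near the detection limit in 3 groups and rose with EGF in cells with the control siRNA. It had 31, 46 and 28 reads in the siCtrl_EGF libraries (2.245, 2.84 and 2.15 CPM) and 11 and 1 reads in the siCtrl libraries (0.556 and 0.0716 CPM). All 3 libraries with EGF were above both libraries without it, though the siCtrl libraries differed among themselves. Cldn4 passed the filter on low counts through siCtrl_EGF alone, the group where it is high, so its entry into the test is not independent of its change. It was 6.75-fold higher in siCtrl_EGF than in siCtrl (log2 change 2.75 ± 0.51; edgeR adjusted p = 0.000718), and it was called in a fit without the filter as well (log2 change 2.77). The log2 change was 2.11 without siCtrl replicate 2 and 4.91 without siCtrl replicate 1. From summed reads, 105 against 12, the ratio was 6.86 with an exact 95% interval of 3.77 to 13.7 that covers counting error only.

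With Arid1a siRNAs the Cldn4 level stayed low under EGF. The siArid1a_EGF libraries had 0, 7 and 4 reads, and the siArid1a libraries had 1, 1 and 2 reads. All 3 siArid1a_EGF libraries were below all 3 siCtrl_EGF libraries. Cldn4 was 8.55-fold lower in siArid1a_EGF than in siCtrl_EGF (log2 change -3.10 ± 0.50; edgeR adjusted p = 0.000161). Here too Cldn4 entered the test through siCtrl_EGF alone, the group where it is high, so its entry is not independent of this change. The log2 change was -3.91 without siArid1a_EGF replicate 2, and -1.03 on the scale log2(FPKM + 1), which understates changes of low genes. Between siArid1a_EGF and siArid1a, 11 against 4 summed reads gave a ratio of 2.66 (exact 95% counting interval 0.788 to 11.5), and the log2 change of 1.34 ± 1.01 did not pass the test (edgeR adjusted p = 0.381). The EGF effect was smaller with Arid1a siRNAs than with the control siRNA by 1.42 ± 1.39 on the log2 scale (coded as a change of -1.42), and this difference between the EGF effects did not pass the test (edgeR adjusted p = 0.856). It was -3.58 without siCtrl replicate 1 and -0.77 without siCtrl replicate 2. At these read numbers the standard error was about as large as the difference. The test therefore cannot decide whether the EGF effect on Cldn4 depended on the siRNA.

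The summed level of duct marker genes was highest in the group in which Cldn4 was high, though single markers differed. The summed level of 10 duct markers was 172 to 194 CPM in siCtrl_EGF against 94.5 to 128 CPM in siCtrl, and 109 to 120 CPM in siArid1a_EGF against 87.7 to 94.4 CPM in siArid1a. Most of that sum was Sox9, at 99.6 CPM on average in siCtrl_EGF against 49.1 CPM in siCtrl, and Slc4a4, at 67.7 against 51.1 CPM. Krt19, the duct keratin, did not follow the sum: it averaged 0.994 ± 0.130 CPM in siCtrl_EGF (SD, n = 3) and 1.91 ± 0.34 CPM in siCtrl (SD, n = 2). Spp1 was highest in siArid1a_EGF, at 15.1 CPM against 8.56 CPM in siCtrl_EGF, and Aqp1 averaged 2.54 CPM in siCtrl_EGF against 3.11 CPM in siCtrl. With EGF in control cells 3 of 9 tested duct markers were higher and 1 lower, where 16.8% of all genes were higher and 18.8% lower. The summed level of 8 islet markers was also higher in siCtrl_EGF, at 1117 to 1161 CPM against 704 to 754 CPM in siCtrl, and was nearly all Chga, with Ins1 and Ins2 listed at 0 reads in every library. The part of the duct marker shift in the Cldn4 result was not tested.

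Cldn2, the claudin that forms a channel for cations and water, had at most 8 reads in a library and did not pass the filter. It had 5, 6 and 4 reads in siArid1a_EGF against 0, 3 and 1 in siArid1a, and 7, 8 and 6 reads in siCtrl_EGF against 0 and 2 in siCtrl. Every library with EGF had more Cldn2 reads than every library without it, whichever siRNA was used. Summed reads gave a ratio of 8.23 for siCtrl_EGF over siCtrl (21 against 2 reads, exact 95% counting interval 2.01 to 72.4). For siArid1a_EGF over siArid1a the ratio was 3.62 (15 against 4 reads, interval 1.16 to 15). Between siArid1a_EGF and siCtrl_EGF it was 0.772 (15 against 21 reads, interval 0.37 to 1.57). In a fit without the filter, the log2 change with EGF was 2.88 ± 0.85 in control cells (edgeR adjusted p = 0.0115) and 1.77 ± 0.77 with Arid1a siRNAs (edgeR adjusted p = 0.126).

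EGF also moved Cldn1, by much less than the knockdown did. In control cells Cldn1 averaged 100 ± 4.28 CPM in siCtrl_EGF (SD, n = 3) and 84.5 ± 2.15 CPM in siCtrl (SD, n = 2), a 1.18-fold rise (log2 change 0.24 ± 0.07; edgeR adjusted p = 0.0141). With Arid1a siRNAs it averaged 31.2 ± 2.42 CPM in siArid1a_EGF and 26.7 ± 0.67 CPM in siArid1a (SD, n = 3 each), 1.17-fold higher with EGF (log2 change 0.23 ± 0.07; edgeR adjusted p = 0.0373). The EGF libraries were above the vehicle libraries in both pairs of groups. These small changes rest on few libraries: the adjusted p was 0.103 without siCtrl replicate 1 and 0.0595 without siCtrl_EGF replicate 1 in control cells, and DESeq2 gave 0.0713 and limma-voom 0.0585 with Arid1a siRNAs. The EGF effects on Cldn1 differed between the siRNAs by -0.02 ± 0.10 (edgeR adjusted p = 0.992).

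Cldn7, a claudin of basolateral membranes that binds EpCAM, was low in all groups. It ranged over 1.197 to 1.61 CPM in siArid1a_EGF and 1.13 to 1.41 CPM in siArid1a, against 0.846 to 1.23 CPM in siCtrl_EGF and 1.504 to 1.62 CPM in siCtrl. The siCtrl_EGF and the siArid1a libraries lay below both siCtrl libraries. Neither log2 change passed the test, that of siCtrl_EGF at -0.58 ± 0.26 (edgeR adjusted p = 0.102) or that of siArid1a at -0.27 ± 0.25 (edgeR adjusted p = 0.462). Cldn6, a claudin of embryonic epithelia, had 0 reads in all 11 libraries, which allows up to 0.152 CPM in the deepest and 0.292 CPM in the shallowest library.

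Ocln and Tjp1 were not called in any of the 6 comparisons by edgeR over all 11 libraries, though Ocln was under some alternatives. Ocln, occludin, ranged over 14.8 to 15.8 CPM in siArid1a_EGF and 15.1 to 15.7 CPM in siArid1a, against 11.6 to 14.9 CPM in siCtrl_EGF and 11.3 to 15.2 CPM in siCtrl. Its log2 change with Arid1a siRNAs was 0.26 ± 0.12 with EGF (edgeR adjusted p = 0.102) and 0.20 ± 0.14 without EGF (edgeR adjusted p = 0.260). Without siCtrl_EGF replicate 2 the change with EGF was 0.39 (adjusted p = 0.0233), and without siCtrl replicate 1 that without EGF was 0.45 (adjusted p = 0.0428) and that of siArid1a_EGF against siCtrl was 0.44 (adjusted p = 0.0415). On the scale log2(FPKM + 0.1), limma-trend gave 0.26 for the change with EGF (adjusted p = 0.0482). Tjp1 ranged over 101 to 138 CPM in siArid1a_EGF and 93.8 to 125 CPM in siArid1a, against 117 to 133 CPM in siCtrl_EGF and 110 to 145 CPM in siCtrl. The groups overlapped throughout for Tjp1, and its log2 changes with Arid1a siRNAs were -0.03 ± 0.14 with EGF and -0.15 ± 0.16 without (edgeR adjusted p = 0.866 and 0.482).

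**Figure D2:**
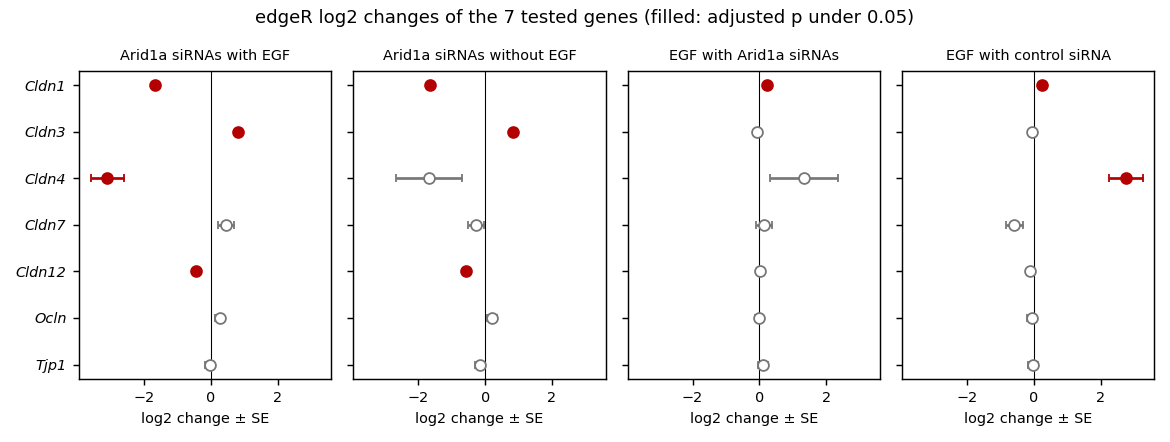
Log2 changes (x axis) of the 7 tested genes with standard errors as bars, in 4 comparisons; filled points have an edgeR adjusted p under 0.05. Cldn1, Cldn3 and Cldn12 have nearly the same change with the Arid1a siRNAs in the presence and in the absence of EGF, and Cldn4 has wide errors.

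Of the 9 genes, 7 were tested. With EGF, siArid1a_EGF against siCtrl_EGF, 4 of the 7 were called, where 46.9% of all tested genes were called. Of these 1 was higher and 3 were lower, where 23.7% of all genes were higher and 23.2% lower. Without EGF, siArid1a against siCtrl, 3 of 7 were called against a background of 38.9%. Of these 1 was higher (background 18.8%) and 2 were lower (background 20.1%). EGF with Arid1a siRNAs called 1 of 7 against 23.4% of all genes. It was higher, where 13.0% of all genes were higher and 10.4% lower. EGF in control cells called 2 of 7 against 35.6% of all genes, and both were higher, where 16.8% of all genes were higher and 18.8% lower. Cldn4, admitted to the test through siCtrl_EGF alone, is among the lower genes of the first comparison and the higher genes of EGF in control cells. These counts are near the background of an experiment in which a large share of all genes changed. The test of whether the EGF effect depended on the siRNA called 0 of 7 members by edgeR, and 0.944% of all genes, with 0.562% higher and 0.382% lower. At an unadjusted p under 0.05 it gave 0 of 7, and DESeq2 and limma-voom also called 0. The siArid1a_EGF and siCtrl groups, which differ in both agents, gave 3 calls of 7 against a background of 43.2% (22.0% higher and 21.3% lower): Cldn1 was 2.71-fold lower, Cldn12 was 1.47-fold lower and Cldn3 was 1.71-fold higher. The median log2 change of the 7 was -0.03 with Arid1a siRNAs and EGF and -0.27 without EGF, against 0.00 and -0.01 over all tested genes.

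Levels between genes can be compared in the FPKM values, which the authors normalised for transcript length, for 3 groups. The siCtrl group is not among them, so siArid1a differs from siCtrl_EGF in both siRNA and EGF. Among the 9 genes Cldn1 led in siCtrl_EGF at 29.8 ± 1.42 FPKM, followed by Cldn3 at 22.8 ± 2.17 FPKM (SD, n = 3). In the knockdown groups Cldn3 led, at 40.3 ± 2.11 FPKM in siArid1a_EGF and 42.6 ± 3.98 FPKM in siArid1a, and Cldn1 stood at 9.26 ± 0.72 and 7.95 ± 0.19 FPKM there. Tjp1 (16.3 ± 2.50, 15.3 ± 2.31 and 16.7 ± 1.21 FPKM in siArid1a_EGF, siArid1a and siCtrl_EGF) and Cldn12 (10.1 ± 0.41, 9.84 ± 1.21 and 13.8 ± 0.43 FPKM) came next. In siArid1a_EGF, Cldn12 and Cldn1 overlapped in their ranges. Ocln stood below them at 3.82 to 4.61 FPKM in group means. Cldn7, at 0.953 to 1.24 FPKM, was above Cldn4 in the knockdown groups, and the order was the other way round in siCtrl_EGF, where Cldn4 reached 1.36 ± 0.20 FPKM and Cldn7 0.953 ± 0.28 FPKM with overlapping ranges. Cldn2 was at 0.118, 0.0286 and 0.154 FPKM in siArid1a_EGF, siArid1a and siCtrl_EGF, and Cldn6 was listed at 0.

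**Figure D3:**
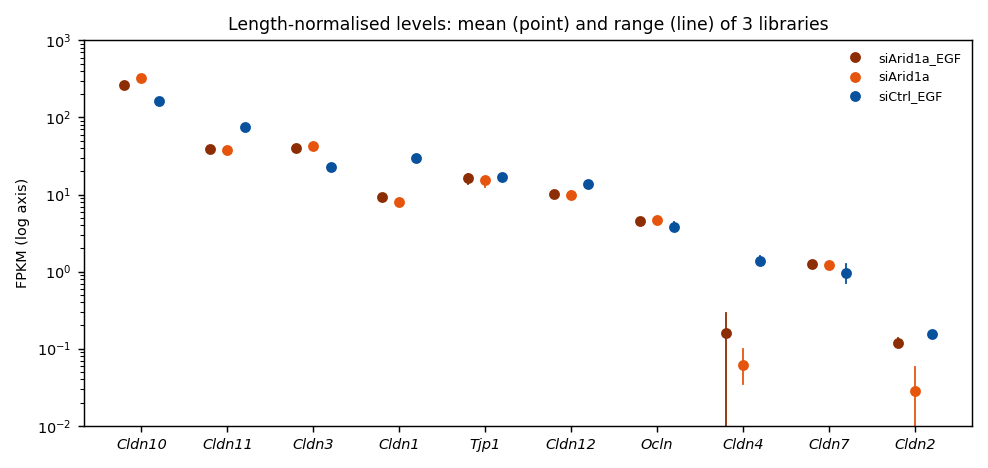
FPKM (y axis, log scale) of 10 genes in the 3 groups with usable FPKM columns; points are means and lines the range of 3 libraries, and a line that runs off the bottom reaches 0. Cldn10 is highest in each group, and Cldn1 and Cldn4 stand lower in both knockdown groups than in siCtrl_EGF. The siArid1a group differs from siCtrl_EGF in EGF as well as siRNA.

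The 7 claudins among the 9 genes made up a minor share of the claudin RNA. The sum was taken in FPKM over 23 rows numbered up to Cldn24, without a row named Cldn25 whose identity is uncertain. Cldn10, whose splice forms make channels for anions or for cations, took 72.4 ± 0.31% in siArid1a_EGF and 76.1 ± 1.17% in siArid1a, against 53.2 ± 1.29% in siCtrl_EGF (SD, n = 3 each). Cldn11, the claudin of myelin and of the testis barrier, took 10.7%, 9.01% and 24.3% in siArid1a_EGF, siArid1a and siCtrl_EGF. Cldn3 took 10.97%, 10.1% and 7.38%, and Cldn1 took 2.52%, 1.90% and 9.67% in the same order of groups. Of the 23, 7 had a mean of 1 FPKM or more in any of the 3 groups, and 6 were listed at 0 in all 9 columns. The summed level was 367 ± 4.90 FPKM in siArid1a_EGF and 423 ± 41.5 FPKM in siArid1a, against 308 ± 4.72 FPKM in siCtrl_EGF. The Cldn25 row, at 50.2, 51.9 and 30.9 FPKM in siArid1a_EGF, siArid1a and siCtrl_EGF, would take 12.0%, 10.99% and 9.11% if added to the sum, a choice made after seeing the data, and the share of Cldn10 would then be 63.7%, 67.8% and 48.4%. Shares depend on each other, so a rise of Cldn10 lowers every other share. The shares of siArid1a and siCtrl_EGF differ by both agents, and in the counts Cldn10 was lower with EGF in control cells, as given below.

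**Figure D4:**
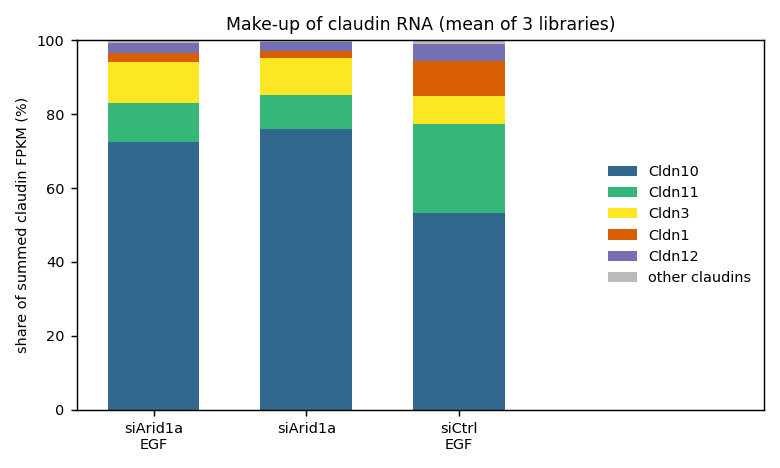
Mean share of each claudin in the summed FPKM of 23 claudins (y axis, percent, from 0) in 3 groups of 3 libraries. Cldn10 takes 72.4% in siArid1a_EGF, 76.1% in siArid1a and 53.2% in siCtrl_EGF, and the bands of Cldn11 and Cldn1 are wider in siCtrl_EGF. The siCtrl group is not shown, and siArid1a differs from siCtrl_EGF in EGF as well as siRNA.

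In the counts, the other claudins split in the same manner. Cldn11 followed Cldn1: it averaged 72.7 ± 1.18 CPM in siArid1a_EGF and 69.9 ± 3.33 CPM in siArid1a, against 138 ± 5.19 CPM in siCtrl_EGF and 126 ± 0.01 CPM in siCtrl (SD, n = 3, 3, 3 and 2). It was 1.90-fold lower with EGF (edgeR adjusted p = 1.45e-08) and 1.80-fold lower without it (edgeR adjusted p = 1.51e-07). Cldn10 averaged 221 ± 1.23 CPM in siArid1a_EGF and 266 ± 29.9 CPM in siArid1a, against 136 ± 4.44 CPM in siCtrl_EGF and 208 ± 0.51 CPM in siCtrl. It rose with Arid1a siRNAs 1.63-fold with EGF (edgeR adjusted p = 1.41e-06) and 1.28-fold without (edgeR adjusted p = 0.0018), and it fell with EGF 1.53-fold in control cells (edgeR adjusted p = 1.87e-05) and 1.21-fold with Arid1a siRNAs (edgeR adjusted p = 0.00937). Of 24 further claudins listed, 4 were tested, and 2 were higher and 1 lower in each of the comparisons of Arid1a siRNAs, counting the Cldn25 row. Of all genes, 23.7% were higher and 23.2% lower in that comparison with EGF, and 18.8% and 20.1% without, and 4 genes are too few to set against these shares. That row was at 109 and 112 CPM in siArid1a_EGF and siArid1a, against 66.8 and 77.7 CPM in siCtrl_EGF and siCtrl (means), but RefSeq gives the symbol as a synonym of 2 genes, Cldnd1 and Cldn25-ps, so its identity is uncertain.

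**Figure D5:**
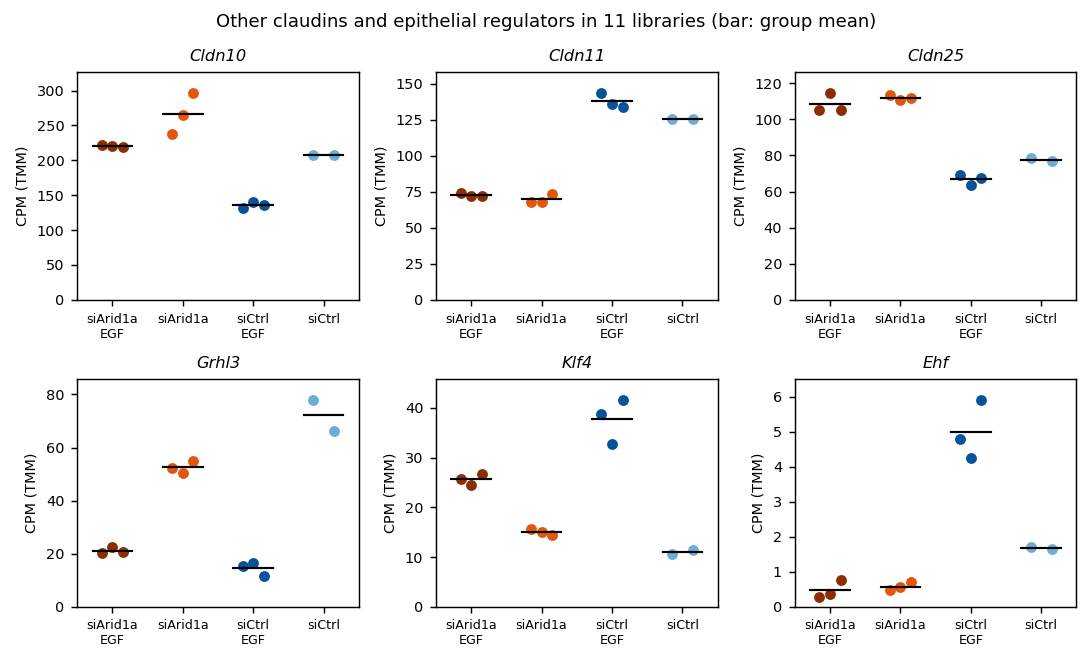
Levels of 3 further claudin rows and 3 transcription regulators in CPM scaled by TMM factors (y axis, from 0) in the 11 libraries; points are libraries and bars are group means. Cldn11 is low and Cldn10 is high with Arid1a siRNAs at each EGF state, Grhl3 is low and Klf4 is high with EGF, and Ehf is above 4 CPM in siCtrl_EGF alone.

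Among 15 tested membrane proteins of the junction other than claudins, 2 were higher and 5 lower with Arid1a siRNAs in the presence of EGF, and 2 were higher and 6 lower without EGF. The shares called among all genes were 46.9% and 38.9%, so 7 and 8 of 15 in either direction are near the background. By direction, 23.7% of all genes were higher and 23.2% lower with EGF, and 18.8% and 20.1% without. The lower genes stood above their share and the higher genes below it, which was not tested in so short a list. Lsr, angulin-1 of tricellular junctions, changed by -0.58 ± 0.07 with EGF and -0.57 ± 0.08 without on the log2 scale. Its relative Ildr2 changed by -0.86 ± 0.15 and -1.23 ± 0.16, and F11r, the adhesion molecule JAM-A, by -0.31 ± 0.05 and -0.33 ± 0.06. All 6 values passed the test (edgeR adjusted p from 3.62e-05 to 0.000511 for the values without EGF and from 2.24e-05 to 0.000272 with EGF). Jam2 fell under either agent, by 1.32 ± 0.18 with EGF in control cells and by 1.23 ± 0.18 with Arid1a siRNAs alone (edgeR adjusted p = 4.83e-05 and 0.000103). Cd81 was 1 of the 2 higher genes with Arid1a siRNAs in the presence of EGF. It averaged 225.9 CPM in siArid1a_EGF against 175.2 CPM in siCtrl_EGF. With EGF, 3 of the 15 were higher and 4 lower in control cells, where 16.8% of all genes were higher and 18.8% lower.

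Of 32 tested scaffold and polarity genes, 12 were higher and 8 lower with Arid1a siRNAs in the presence of EGF, and 8 were higher and 7 lower without EGF. Calls of 20 and 15 in 32 stand beside 46.9% and 38.9% of all genes. By direction, 23.7% of all genes were higher and 23.2% lower with EGF, and 18.8% and 20.1% without. Magi3, a scaffold with PDZ domains, rose by 1.05 ± 0.09 with EGF and 0.82 ± 0.10 without on the log2 scale (edgeR adjusted p = 5.57e-07 and 2.30e-05). Tjp3, which encodes ZO-3, rose by 0.94 ± 0.14 and 0.80 ± 0.15 (edgeR adjusted p = 7.27e-05 and 0.000724). Tjp3 is shown as a relative of Tjp1 and was chosen after its values were seen. Mylk, the myosin light chain kinase that contracts the ring of actin at the junction, rose by 1.62 ± 0.14 and 1.35 ± 0.15 (edgeR adjusted p = 9.50e-07 and 2.17e-05). Lin7c and Vasp were among the lower genes in both comparisons. Lin7c averaged 155.3 CPM in siArid1a_EGF against 218.1 CPM in siCtrl_EGF, and 161.5 CPM in siArid1a against 218.3 CPM in siCtrl. Vasp averaged 91.8 against 125.3 CPM and 67.3 against 95.8 CPM in the same groups. EGF in control cells gave 4 higher and 8 lower, beside 16.8% and 18.8% of all genes, led by Csda, the ZO-1-bound regulator ZONAB, at 1.08 ± 0.07 (edgeR adjusted p = 2.41e-08).

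Of 21 tested regulators of epithelial junctions, 2 were higher and 10 lower with Arid1a siRNAs in the presence of EGF. Without EGF, 3 were higher and 10 lower. The 21 are transcription regulators except Esrp1 and Esrp2, which regulate splicing. Of all genes, 23.7% were higher and 23.2% lower with EGF, and 18.8% were higher and 20.1% lower without. Their median log2 change was -0.43 with EGF and -0.36 without, against 0.00 and -0.01 over all tested genes. The ETS factor Ehf, like Cldn4, was highest in siCtrl_EGF: it was at 0.282, 0.366 and 0.753 CPM in siArid1a_EGF and 0.466, 0.553 and 0.696 CPM in siArid1a, against 4.78, 4.26 and 5.92 CPM in siCtrl_EGF and 1.72 and 1.65 CPM in siCtrl. All 6 knockdown libraries were below all 5 controls. Ehf was 10.8-fold lower in siArid1a_EGF than in siCtrl_EGF (edgeR adjusted p = 2.66e-07), and it was 2.92-fold higher in siCtrl_EGF than in siCtrl (edgeR adjusted p = 0.00012). Cdx2, a homeobox factor of gut epithelium, fell by 1.95 ± 0.26 with EGF and 1.73 ± 0.36 without (edgeR adjusted p = 2.44e-05 and 0.00188). Tfap2a and Gata6 fell in both comparisons as well, by 0.96 ± 0.12 and 0.43 ± 0.07 with EGF and by 0.99 ± 0.13 and 0.80 ± 0.07 without EGF.

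With EGF, 7 of the 21 regulators were higher and 6 lower in control cells, and 4 higher and 3 lower with Arid1a siRNAs. The shares over all genes were 16.8% higher and 18.8% lower in control cells, and 13.0% higher and 10.4% lower with Arid1a siRNAs. Grhl3, a grainyhead factor of epithelial barriers, was at 20.4, 22.6 and 20.6 CPM in siArid1a_EGF against 52.3, 50.3 and 55.0 CPM in siArid1a, and at 15.2, 16.5 and 11.6 CPM in siCtrl_EGF against 78.0 and 66.1 CPM in siCtrl. Klf4, a Krüppel-like factor of differentiating epithelia, was at 25.8, 24.6 and 26.7 CPM in siArid1a_EGF against 15.7, 15.1 and 14.5 CPM in siArid1a, and at 38.7, 32.7 and 41.7 CPM in siCtrl_EGF against 10.5 and 11.4 CPM in siCtrl. EGF moved both genes in the same direction under either siRNA, and by less with the Arid1a siRNAs. The EGF effects differed between the siRNAs by 1.01 ± 0.16 for Grhl3 and -1.02 ± 0.15 for Klf4 on the log2 scale (edgeR adjusted p = 0.00673 and 0.00559). They were the sole genes of the 21 for which this difference passed the test.

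Of 13 tested kinases, proteases and protease inhibitors linked to claudins, 2 were higher and 4 lower with Arid1a siRNAs in the presence of EGF. Without EGF, 2 were higher and 1 lower. The 6 calls with EGF stand beside 46.9% of all genes, and the 3 without EGF beside 38.9%. By direction, 23.7% of all genes were higher and 23.2% lower with EGF, and 18.8% and 20.1% without. Epha2, a receptor tyrosine kinase of epithelial cells, was at 9.44, 8.63 and 8.95 CPM in siArid1a_EGF against 1.49, 2.64 and 2.09 CPM in siArid1a, and at 15.1, 15.2 and 16.1 CPM in siCtrl_EGF against 1.72 and 3.15 CPM in siCtrl. It rose with EGF under both siRNAs, 4.20-fold with Arid1a siRNAs and 6.60-fold in control cells (edgeR adjusted p = 4.59e-06 and 1.6e-07). Wnk4, a kinase of paracellular chloride handling, rose with Arid1a siRNAs by 0.58 ± 0.07 with EGF and 0.79 ± 0.08 without on the log2 scale (edgeR adjusted p = 1.29e-05 and 5.76e-06). Epha2 and the kinase gene Stk39 were among the 4 lower genes with Arid1a siRNAs in the presence of EGF. Stk39 averaged 4.43 CPM in siArid1a_EGF against 7.02 CPM in siCtrl_EGF.

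The genes whose log2 CPM followed each member most closely over the 11 libraries are given as a description, with no test. Differences between groups can make many genes alike, and so can differences among libraries within a group. Tjp1 and Ocln were not called in any comparison by edgeR over all 11 libraries, and the Tjp1 groups overlapped. For Cldn1 they were Txlna (r = 0.998), Mllt1 (r = 0.997) and Cldn11 (r = 0.994), so a claudin was among the 3. For Cldn3 they were Slc39a13, Ephx1 and Clpb (r = 0.987, 0.987 and 0.985), and for Cldn12 they were Ubxn7, Gpr125 and Cmklr1 (r = 0.979, 0.977 and 0.972). Cldn4 was matched by Dph3, Vdac2 and Rpf1 (r = 0.962, 0.962 and 0.959). Ocln was matched by Cdk10, Syt11 and Rom1 (r = 0.944, 0.944 and 0.933) and Tjp1 by Zfp397, Herc2 and Nbeal1 (r = 0.973, 0.968 and 0.967). Cldn7 had the weakest likeness, at most 0.856 with Fhod1.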

How the data were processed

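Per the labels' protocols, polyadenylated RNA was made into libraries with a TruSeq kit that keeps no strand. Per the submitters' processing notes, TopHat2 2.1.1, HTSeq 0.9.1 and Cuffnorm 2.2.1.2 were used with mm9, which gave the deposited counts per gene and the authors' FPKM values. Reads that no gene took are not listed in the files. Of the FPKM columns, 9 name a group by their headers, while 3 control columns stand against 2 control samples and were left out.

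Counts were tested with edgeR 4.0.16 (R 4.3.3) by its quasi-likelihood test over 4 group means and 11 libraries, with TMM factors and the filterByExpr filter (minimum count 10, minimum total 15). P-values were adjusted by Benjamini-Hochberg over 13343 genes, and a gene was called at an adjusted p under 0.05. The biological coefficient of variation was 7%. DESeq2 1.42.0, limma 3.58.1 (voom on counts, and limma-trend on log2(FPKM + 0.1)) and other settings were alternatives. The scripts were tested on simulated data. The members and lists were chosen with earlier results of these data known. Genes outside the 9 were picked by a rule, which took up to 4 called list members per list and comparison. These had the smallest p and a mean log2 CPM of at least 1. The rule also took the 3 genes most like each member. Not all genes that the rule picked are described, so those described are a subset. Tjp3 in the comparisons of Arid1a siRNAs, Wbscr25 and the marker genes named singly were chosen after their values were seen. In the likeness search, log2 CPM had a prior count of 2 and genes had a mean of 3 or more.

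Replicate numbers were checked as pairs by the correlation of deviations from group means. Same-numbered libraries of siArid1a_EGF and siCtrl_EGF gave r = 0.42, 0.606 and 0.309, and unlike numbers of these groups at most 0.238. For siArid1a_EGF and siArid1a same numbers gave 0.218, -0.665 and -0.328, and for siCtrl_EGF and siCtrl -0.415 and -0.695. For siArid1a and siCtrl they gave -0.0202 and 0.625, and for siArid1a_EGF and siCtrl -0.534 and -0.704. Deviations within so small a group depend on each other, and siCtrl replicate 1 gave 0.704 with siArid1a_EGF replicate 2. Whether the numbers pair libraries is therefore not settled. No 2 libraries of a group agreed within sampling noise (chi-square per degree of freedom at least 1.6).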

Additional observations from a re-analysis of the deposited data

Results flagged for a closer look

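The change with EGF differed between cells with Arid1a siRNAs and cells with the control siRNA for 2 of the transcription regulators described above. For Grhl3 the difference was 1.01 on the log2 scale (EGF with Arid1a siRNAs minus EGF with control siRNA, SE 0.16, edgeR adjusted p = 0.00673). Over the alternatives it ranged from 0.877 to 1.12, with a largest adjusted p of 0.0435. For Klf4 it was -1.02 (SE 0.15, edgeR adjusted p = 0.00559), and it ranged from -1.11 to -0.939, with a largest adjusted p of 0.0314. All 3 siArid1a_EGF libraries were below all 3 siArid1a libraries for Grhl3 and above them for Klf4, and the control groups were apart in the same directions.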

How the results depend on the processing

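The falls of Cldn1 and Cldn12 and the rise of Cldn3 with Arid1a siRNAs were called, in the same direction, under every alternative run, with log2 changes of Cldn1 from -1.75 to -1.59 with EGF and from -1.68 to -1.60 without EGF. Cldn4 was called under every alternative for EGF in control cells (2.11 to 4.91, largest adjusted p = 0.00517) and for Arid1a siRNAs with EGF (-3.91 to -1.03, largest adjusted p = 0.00208). Apart from the fits with no filter, these alternatives admitted Cldn4 through siCtrl_EGF, the group where it is high, and are not independent support. The count of members called with EGF and Arid1a siRNAs, 1, was 0 with upper-quartile factors, with no filter, with DESeq2, with limma-voom, with only the groups compared and with the replicate block, since Cldn1 then had an adjusted p of 0.0609, 0.0586, 0.0713, 0.0585, 0.0752 and 0.0578. Leaving out each library gave 0 to 1 there, 1 to 2 members for EGF in control cells, and 55 to 153 genes for the dependence of the EGF effect on the siRNA, against 126. Without siCtrl_EGF replicate 1 that count was 55, and with the replicate block it was 56. The replicate block changed no other call of a member. Changes that turned sign were uncalled. Tjp1 gave 0.0115 for Arid1a siRNAs with EGF with upper-quartile factors, and 0.0028 with no filter, 0.0024 with only the groups compared and 0.0085 with the replicate block for EGF in control cells. Cldn12 gave -0.0035 for EGF with Arid1a siRNAs with upper-quartile factors. Leaving out each library gave the following ranges. For Arid1a siRNAs without EGF, Cldn4 spanned -2.32 to 0.49 and Tjp1 -0.33 to 0.0575, and with EGF Tjp1 spanned -0.13 to 0.0867. For EGF with Arid1a siRNAs, Arid1a spanned -0.14 to 0.0319, Cldn12 -0.0636 to 0.13, Ocln -0.0303 to 0.0105 and Tjp1 -0.0228 to 0.22. For EGF in control cells, Cldn3 spanned -0.14 to 0.0115, Ocln -0.24 to 0.17 and Tjp1 -0.21 to 0.19. For siArid1a_EGF against siCtrl, Cldn4 spanned -1.16 to 1.82 and Tjp1 -0.24 to 0.16. For the difference of EGF effects, Arid1a spanned -0.0495 to 0.41, Cldn1 -0.0856 to 0.0209, Cldn3 -0.0918 to 0.0669, Ocln -0.19 to 0.24 and Tjp1 -0.0918 to 0.31. The cause of these moves was not tested beyond the fewer libraries used. Depth limits Cldn2, Cldn4 and Cldn7, which had few reads, and the siCtrl group had 2 libraries, so a small change against it has a wide error.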
